A study of Mus musculus with 7 samples.

Results

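Inv3 and Inv4 are 2 CRISPR/Cas9 inversions on mouse chromosome 1 that share their right breakpoint inside the regulatory domain of Epha4 and differ at the left one. Their left breakpoints lie 140 kb apart, so the stretch chr1:74790001-74930000 (mm9), which carries the genes from Wnt6 to Fev, keeps its place in Inv3 and is turned with the rest of the segment in Inv4. The comparison takes the 2 libraries titled for these inversions, of 7 libraries in the series, and asks which genes gained or lost contact with the enhancer region when the stretch was inverted as well. The deposited gene table lists 4 genes in the stretch, Wnt6, Wnt10a, Cdk5r2 and Fev, among 103 genes.

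The series used capture Hi-C, which counts ligation products between pairs of restriction fragments enriched from a 10 Mb region around Epha4. Forelimb and hindlimb buds were dissected at stage E11.5, and each condition was 1 library from the limbs of 10 embryos. The genotype field reads WT for the reference and mutant for Inv3 and Inv4, and also for Inv1 and Inv2, which share the right breakpoint and leave the stretch outside the inverted segment. The titles of these libraries add the word Distal, the cell type field reads G4 ESC for every library. The labels do not state whether the embryos were homozygous for the inversions. Contact data hold no expression values, so the labelled tissue could not be checked against marker genes. With 1 library per condition no difference below has a replicate check, and no p-value is given.

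Chromosomes fold into topologically associating domains, within which promoters meet enhancers more often than across the domain borders. Epha4, an ephrin receptor gene expressed in the limb bud, lies in a large domain with distal limb enhancers, and an inversion with a breakpoint inside that domain carries part of it next to other genes. Wnt6 and Wnt10a encode secreted Wnt ligands, Cdk5r2 a neuronal activator of the kinase Cdk5, and Fev a transcription factor of the ETS family known from serotonergic neurons.

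On the Inv3 chromosome the order from the centromeric side is the stretch, the moved part of the Epha4 domain (chr1:75620001-75900000 in WT order), the gene-dense part from Cryba2 to Slc4a3, and the rest of the Epha4 domain (chr1:75900001-77510000). On the Inv4 chromosome the moved part follows Prkag3 directly, and the stretch lies at the opposite end of the segment, against the rest of the Epha4 domain. The stretch is thus joined to the smaller piece of the domain in Inv3 and to the larger piece in Inv4. The RefSeq table of GRCm38.p6 places 9 genes from Wnt6 to Fev, of which 4 are protein-coding, 4 are lncRNA genes and 1 is a tRNA gene, and the 4 protein-coding genes are those in the deposited table.

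Promoters of stretch genes and of the genes just beyond the stretch are shown, because the left joins part Prkag3 from Wnt6 in Inv4 and Fev from Cryba2 in Inv3. These pairs rest on the name of the stretch, on the order of the deposited table and on its values, since gene positions in mm9 were not used here. The promoter coordinates are of another build, GRCm38.p6, and cannot be set against the mm9 limits of the stretch. RefSeq promoters of GRCm38.p6 run from 250 bases before to 50 bases after each start and are written 5′ to 3′ on the strand of the gene, and capitals mark GC boxes (GGGCGG on either strand, overlapping matches counted). The promoter of Wnt10a is not shown. Shown are Prkag3 at chr1:74748906-74749205 (minus strand), Wnt6 at chr1:74771642-74771941 (plus strand), Cdk5r2 at chr1:74854779-74855078 (plus strand), Fev at chr1:74885359-74885658 (minus strand) and Cryba2 at chr1:74893094-74893393 (minus strand).
Prkag3: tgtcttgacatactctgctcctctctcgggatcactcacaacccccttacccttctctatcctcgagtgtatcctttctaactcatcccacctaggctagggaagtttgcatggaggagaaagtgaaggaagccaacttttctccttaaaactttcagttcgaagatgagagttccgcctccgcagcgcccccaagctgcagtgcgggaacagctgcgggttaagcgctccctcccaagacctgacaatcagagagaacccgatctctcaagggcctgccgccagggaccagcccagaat
Wnt6: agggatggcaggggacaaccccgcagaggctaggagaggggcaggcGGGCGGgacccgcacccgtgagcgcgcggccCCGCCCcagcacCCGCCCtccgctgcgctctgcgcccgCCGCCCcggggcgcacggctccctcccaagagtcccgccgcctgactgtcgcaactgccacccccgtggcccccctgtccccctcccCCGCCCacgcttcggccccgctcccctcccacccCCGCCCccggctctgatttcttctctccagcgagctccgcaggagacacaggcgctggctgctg
Cdk5r2: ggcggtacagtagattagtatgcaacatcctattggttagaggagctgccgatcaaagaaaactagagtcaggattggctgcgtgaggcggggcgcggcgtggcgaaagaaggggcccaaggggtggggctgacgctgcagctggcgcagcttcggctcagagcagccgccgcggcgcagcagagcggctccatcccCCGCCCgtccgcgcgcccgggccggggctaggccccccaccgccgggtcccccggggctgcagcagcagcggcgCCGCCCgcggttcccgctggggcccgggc
Fev: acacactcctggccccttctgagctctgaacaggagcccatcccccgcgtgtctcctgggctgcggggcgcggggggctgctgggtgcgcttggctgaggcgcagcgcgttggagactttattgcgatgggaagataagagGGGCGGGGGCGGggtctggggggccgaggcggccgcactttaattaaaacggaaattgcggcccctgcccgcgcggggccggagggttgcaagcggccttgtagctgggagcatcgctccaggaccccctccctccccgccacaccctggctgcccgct
Cryba2: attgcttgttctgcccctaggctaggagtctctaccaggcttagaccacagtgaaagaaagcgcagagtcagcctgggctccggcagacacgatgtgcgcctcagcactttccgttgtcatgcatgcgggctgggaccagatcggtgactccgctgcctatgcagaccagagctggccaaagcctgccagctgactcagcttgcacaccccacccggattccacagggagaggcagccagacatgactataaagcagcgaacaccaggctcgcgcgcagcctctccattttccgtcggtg

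The 3 promoters from inside the stretch were richer in G and C than the 2 outside it. GC content was 76.7% for Wnt6, 71.7% for Cdk5r2 and 69% for Fev, against 54% for Prkag3 and 59.3% for Cryba2, with a median of 52.7% over 32851 promoters. The Wnt6 promoter held 6 GC boxes, and those of Cdk5r2 and Fev held 2 each. The Prkag3 and Cryba2 promoters held none, and 35.7% of all promoters held at least 1. The letters TATAAA, searched on both strands, occurred once, in the Cryba2 promoter, and in 13.6% of all promoters.

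All 4 genes of the stretch had high contact with the enhancer region in Inv3 and low contact in Inv4. The values are the authors' scaled contact of a gene start with that region, in deposited units without counts, so their depth is unknown. Wnt6 was at 0.401 in WT, 15.4 in Inv3 and 0.545 in Inv4, and Wnt10a at 0.697, 16.6 and 0.766. Cdk5r2 was at 0.365 in WT, 20.05 in Inv3 and 1.81 in Inv4. Fev, the gene next to the Inv3 join, was at 1.31 in WT, 36.4 in Inv3 and -0.0665 in Inv4. Along the stretch the Inv3 values followed the order of the genes, lowest at Wnt6 and highest at Fev.

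Differences in scaled contact between Inv3 and Inv4 for these genes were far above the scatter of distant genes. Over the 35 genes at both ends of the table the difference had an SD of 0.808 units. Their means were 0.310 units in Inv3 and 0.428 in Inv4, so this SD does not measure the scatter of genes at higher values. In the stretch Inv3 minus Inv4 was 14.8 for Wnt6, 15.8 for Wnt10a, 18.2 for Cdk5r2 and 36.5 for Fev. As log2 ratios of Inv3 over Inv4, with negative values set to 0 and a pseudocount of 0.5, these were 3.93, 3.76, 3.15 and 6.20, and they ranked 2, 3, 4 and 1 among all genes. The pseudocount understates ratios of low genes, and no plain fold is given for Fev because its Inv4 value was below 0. In Inv1 and Inv2, whose left joins lie further toward Epha4, the median of the 4 genes was 4.35 and 5.47 units, against 18.3 in Inv3, 0.655 in Inv4 and 0.549 in WT.

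**Figure D1:**
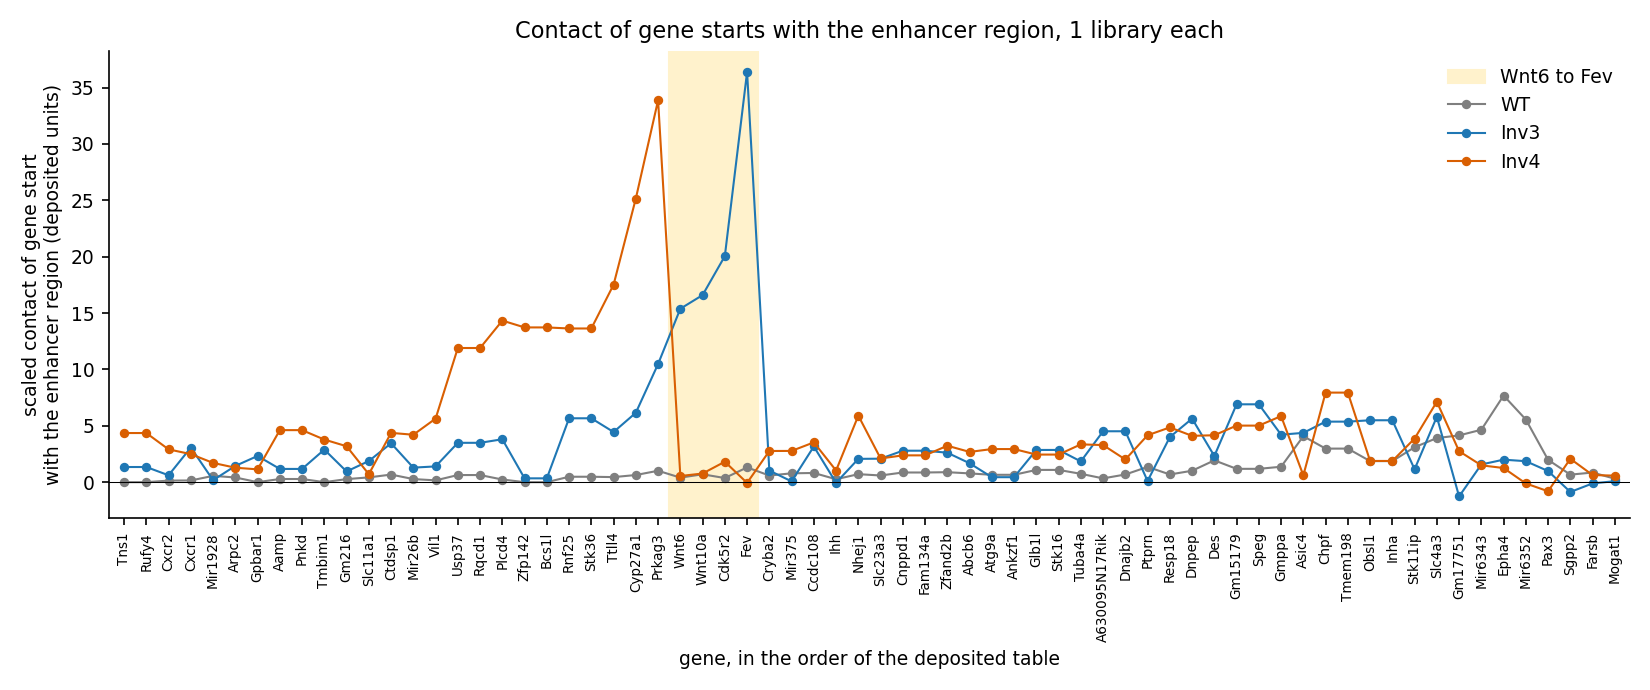
Scaled contact of each gene start with the enhancer region (y axis, deposited units) for genes from Tns1 to Mogat1 in table order (x axis), with 1 point per library for WT, Inv3 and Inv4 and the stretch shaded. Inv3 reaches 36.4 at Fev inside the stretch, where Inv4 lies at or below 1.81, and Inv4 reaches 33.9 at Prkag3 just outside it.

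Over the whole table more genes were higher in Inv4 than in Inv3. At over 2-fold, 14 of 103 genes (13.6%) were higher in Inv3, and all 4 stretch genes were among them. At the same threshold 38 genes (36.9%) were higher in Inv4, and none of these was in the stretch. The median log2 ratio was -0.40 over all genes and 3.84 over the stretch. The authors scaled each table separately, in a way not given in the sources used here. Ratios centred on the median gene gave 21 genes higher in Inv3 and 27 higher in Inv4, and a stretch median of 4.24. A pseudocount of 5 in place of 0.5 left 4 genes higher in Inv3, all in the stretch, and 6 higher in Inv4, with a stretch median of 1.89. The stretch genes had been seen in earlier results, so these counts describe them and test nothing.

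In the order of the deposited table the genes from Usp37 to Prkag3 come just before Wnt6, on the side that the moved part joins in Inv4. Their distances from the join were not determined. In Inv4 these 10 genes were at 11.9 to 33.9 units with a median of 13.7, and in Inv3 at 0.339 to 10.5 with a median of 4.13, so that the ranges did not overlap. The group was chosen after values were seen, so the gap between the ranges tests nothing. Their WT median was 0.480, and all 10 were over 2-fold higher in Inv4 on the deposited scales, against 36.9% of all 103 genes. After centring or after dividing by the mean of the far genes 8 of 10 were, without Rnf25 and Stk36. Over all genes these scales gave 27 and 23 of 103. Neighbours in one interval share values, so the 10 genes hold 7 distinct sets of values. Prkag3, which encodes a regulatory subunit of AMP-activated kinase in muscle, was at 1.01 in WT, 10.5 in Inv3 and 33.9 in Inv4, with a log2 ratio of -1.65. Cyp27a1, a sterol hydroxylase gene of bile acid synthesis, was at 0.633, 6.15 and 25.2 units, and Ttll4, a tubulin polyglutamylase gene, at 0.447, 4.45 and 17.5. Zfp142, a zinc finger gene, and Bcs1l, which encodes an assembly factor of respiratory complex III, shared their values and were listed at 0 in WT, 0.339 in Inv3 and 13.7 in Inv4. Theirs was the lowest log2 ratio of the table, -4.08, and each gene has the value of the interval the pair shares. Each of the 10 genes was above its WT value in Inv3 as well, although Zfp142 and Bcs1l by less than the SD of the far genes.

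Across the whole centromeric block, from Tns1 to Prkag3, 19 of 25 genes were over 2-fold higher in Inv4 and none was over 2-fold higher in Inv3. Over all 103 genes the shares were 36.9% and 13.6%. The median log2 ratio was -1.61. With centred ratios 15 genes were higher in Inv4 and 2 in Inv3, against 27 and 21 of 103 genes in all. The calls lost were those of Gm216, Mir26b, Rnf25 and Stk36.

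**Figure D2:**
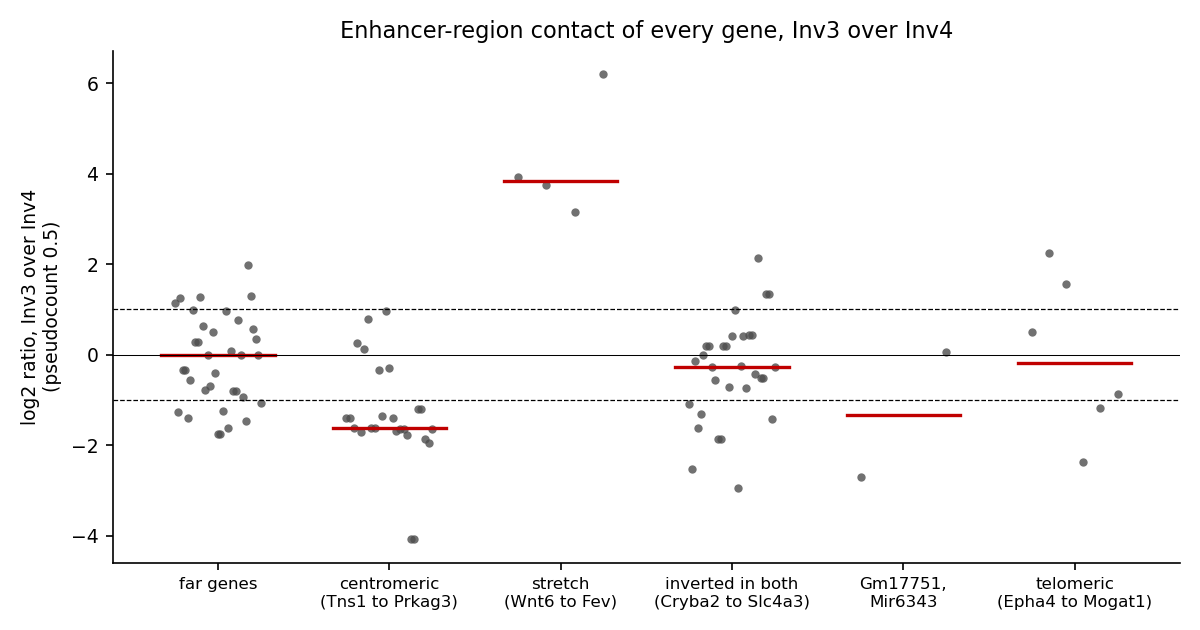
Log2 ratio of Inv3 over Inv4 (y axis, pseudocount 0.5) for each of 103 genes, grouped by block along the chromosome (x axis), with points for genes, red lines for block medians and dashed lines at 2-fold. The stretch stands at a median of 3.84 and the centromeric block at -1.61, and the far genes scatter around 0.

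Genes inverted on both chromosomes differed less. Of 31 genes from Cryba2 to Slc4a3, 3 were over 2-fold higher in Inv3 and 8 in Inv4. Over all 103 genes 13.6% and 36.9% were, so neither count was an excess. The median log2 ratio of -0.26 became 0.13 after centring. Median contact was 2.86 units in Inv3 and 3.23 in Inv4, against 0.884 in WT. Cryba2, a lens crystallin gene that borders the stretch, was at 1.03 units in Inv3 and 2.76 in Inv4. In WT it is the neighbour of Fev, and the Inv3 break separates them. Mir375, a microRNA gene of endocrine cells, was at 0.068 and 2.77, and Ptprn, a gene of secretory granules, at 0.102 and 4.16.

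Ihh, the hedgehog ligand gene of growing cartilage, was at 0.260 in WT, -0.053 in Inv3 and 1.03 in Inv4. Its difference of 1.08 units between Inv4 and Inv3 was above the SD of the far genes, 0.808, but within their scatter. The far gene Gm8883, for example, was higher in Inv4 by 1.42 units. The contacts of the 3 Wnt and hedgehog ligand genes of this neighbourhood, Wnt6, Wnt10a and Ihh, were at or below 1.03 units in Inv4. Atg9a, an autophagy gene, and Ankzf1, its neighbour, shared values of 0.441 in Inv3 and 2.94 in Inv4. In the other direction Asic4, of the acid-sensing ion channel family, was at 4.37 in Inv3 and 0.603 in Inv4. Obsl1, a cytoskeletal adaptor gene, and Inha, which encodes the inhibin alpha subunit, shared 5.49 and 1.88. Slc4a3, an anion exchanger gene, was at 5.80 and 7.13, and Des, the muscle intermediate filament gene, at 2.32 and 4.16, both under 2-fold. The log2 ratio of Slc4a3 was -0.28 and turned to 0.12 after centring.

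Epha4 itself had little contact with the enhancer region on either inverted chromosome. It was at 7.68 units in WT, 1.995 in Inv3 and 1.25 in Inv4, and the difference of 0.741 between the inversions was below the SD of the far genes. Gm17751, between Slc4a3 and Epha4, was at 4.15 in WT, -1.27 in Inv3 and 2.75 in Inv4. Mir6352 was at 5.55 in WT, 1.86 in Inv3 and -0.117 in Inv4, and Pax3, a transcription factor gene of muscle precursors and neural crest, at 1.98, 0.984 and -0.808. Sgpp2, a sphingosine-1-phosphate phosphatase gene, was at 0.667, -0.871 and 2.07 units. Of the 6 genes from Epha4 to Mogat1, 2 were over 2-fold higher in Inv3 and 2, Sgpp2 and Farsb, in Inv4. The shares over all 103 genes were 13.6% and 36.9%. Farsb, a tRNA synthetase subunit gene, was at -0.112 in Inv3 and 0.629 in Inv4, a difference below the SD of the far genes, and its log2 ratio of -1.17 was -0.78 after centring. Mogat1, a gene of glyceride synthesis, was at 0.087 and 0.579. Even among far genes, 5 of 35 were over 2-fold higher in Inv3 and 8 in Inv4. The far gene with the highest ratio was Mrpl44, which encodes a mitochondrial ribosomal protein, with a log2 ratio of 1.99 from a difference of 1.49 units.

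The full contact maps were used next to ask which sequence the stretch met on each chromosome. Each map lists a balanced value per pair of 10 kb bins from 71 to 81 Mb of mm9. The Inv3 and Inv4 maps are each a library minus a weighted WT map, in which the subtracted signal made up 49.4% and 49.1% of the original bin sum, and 31.3% and 28.8% of listed pairs are negative. Recovered read pairs outside the inverted segment were 3262808 for Inv3 and 2885690 for Inv4, and the whole WT map held 5155259. The maps are written in the order of the rearranged chromosome and were turned back to WT order. Contacts are given as a percent of all contacts of the stretch, with approximate 95% intervals or standard errors that cover counting error only, so they are too narrow as a measure of biological spread. Both mutant maps had the same WT map subtracted, and that shared error was not taken into account.

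In Inv3 the stretch met the moved part of the Epha4 domain, and in Inv4 it met the rest of that domain. The moved part took 0.836% of the contacts of the stretch in WT, 18.6% in Inv3 and 1.57% in Inv4, a difference between the inversions of 17.02 percentage points (95% interval 16.6 to 17.5). The rest of the domain took 2.86% in WT, 2.97% in Inv3 and 31.8% in Inv4, and Inv3 minus Inv4 was -28.8 (-29.4 to -28.1). Beyond the distal border of the domain, the Pax3 side (the next 990 kb) took 1.84% in WT, 1.36% in Inv3 and 12.2% in Inv4. The intervals of the 2 inversions did not overlap for any of these 3 partners. They overlapped for no other partner either, except the far centromeric sequence, at 2.87% in Inv3 and 2.88% in Inv4. Lack of overlap therefore does not set these 3 partners apart. With the subtracted WT signal added back, the difference between the inversions was 8.62 percentage points for the moved part and 14.7 for the rest of the domain, in the same directions. Inv1 and Inv2 placed 4.65% and 5.43% of the contacts of the stretch on the moved part, and 3.35% and 3.09% on the rest of the domain.

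Contacts with the former neighbours of the stretch went down where it was carried away from them. The 1 Mb centromeric of the stretch took 20.5% of its contacts in WT, 19.2% in Inv3 and 2.90% in Inv4. With the WT signal added back, Inv3 exceeded Inv4 by 8.33 percentage points instead of 16.3. The gene-dense part inverted in both took 19.7% in WT, 11.1% in Inv3, where the moved part lies in between, and 17.6% in Inv4, where the 2 were inverted together. Contacts of the stretch within itself were 48.2%, 42.6% and 27.5%. The share within the stretch in Inv4 was below that of Inv3 by 15.1 percentage points (13.9 to 16.3), although its length is the same. Shares add up to a fixed total, so higher shares with other partners lower this one. It was not computed with the WT signal added back. When each contact was divided by the mean of its map at the same distance, contact within the stretch was 1.11 ± 0.011 (counting SE) in WT, 1.09 ± 0.025 in Inv3 and 0.761 ± 0.025 in Inv4. The maps are balanced, so this ratio has a similar limit, and a loss of contact within the stretch was not tested apart from it.

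**Figure D3:**
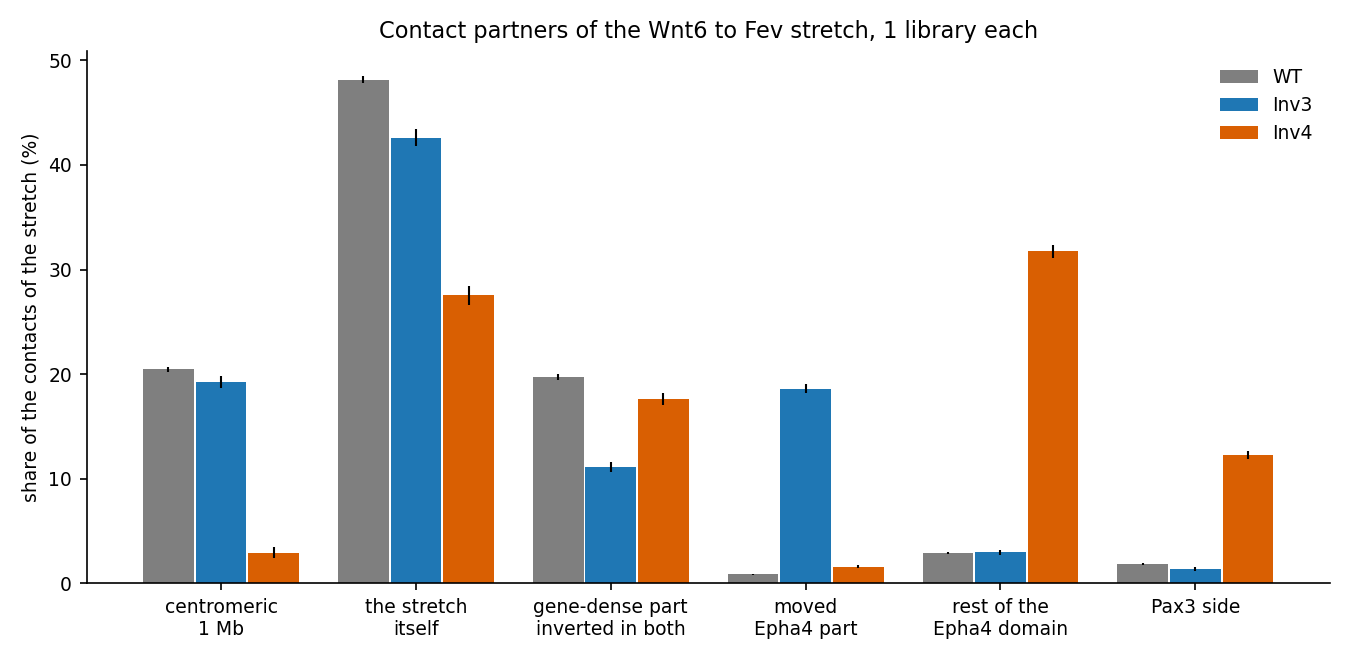
Share of the contacts of the stretch (y axis, percent) by partner region in chromosome order (x axis), with bars for WT, Inv3 and Inv4, 1 library each, and error bars giving 95% counting intervals. The moved Epha4 part is high in Inv3 (18.6%), and the rest of the domain (31.8%) and the Pax3 side (12.2%) are high in Inv4.

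Distances along the chromosome differ between the arrangements, and the ratio to the mean of the same map at the same distance takes them into account. Between the stretch and the moved part the median distance was 900 kb in WT and Inv4 and 210 kb in Inv3. The ratio was 0.324 ± 0.010 in WT, 1.32 ± 0.015 in Inv3 and 0.493 ± 0.024 in Inv4. Between the stretch and the rest of the domain the distance was 1845 kb in WT and Inv3 and 875 kb in Inv4. There the ratio was 0.478 ± 0.008 in WT, 0.456 ± 0.018 in Inv3 and 1.06 ± 0.009 in Inv4. Each new neighbour of the stretch was thus met above the mean for its distance, and each piece of the domain that was not joined to it was met well below that mean.

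Every bin of the stretch showed both changes. With the moved part, all 14 bins had a higher share in Inv3 by the 95% counting interval, against 3.92% of 970 bins along the map. With the rest of the domain, all 14 had a higher share in Inv4, against 23.2% of 837 bins. The share with the moved part ran from 8.75% at the Wnt6 end to 44.4% at the Inv3 join, with a median of 17.1%, and in Inv4 from 0.630% to 5.55% with a median of 1.30%. The Inv4 value of 5.55% belongs to the outermost bin, which the Inv4 break adjoins, and the next highest bin was at 1.63%. The share with the rest of the domain ran the opposite way in Inv4, from 56.7% at the Wnt6 end, now against the join, to 15.6% at the Fev end. In Inv3 the same bins were at 2.09% to 4.71%, and in WT at 1.98% to 3.44%.

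**Figure D4:**
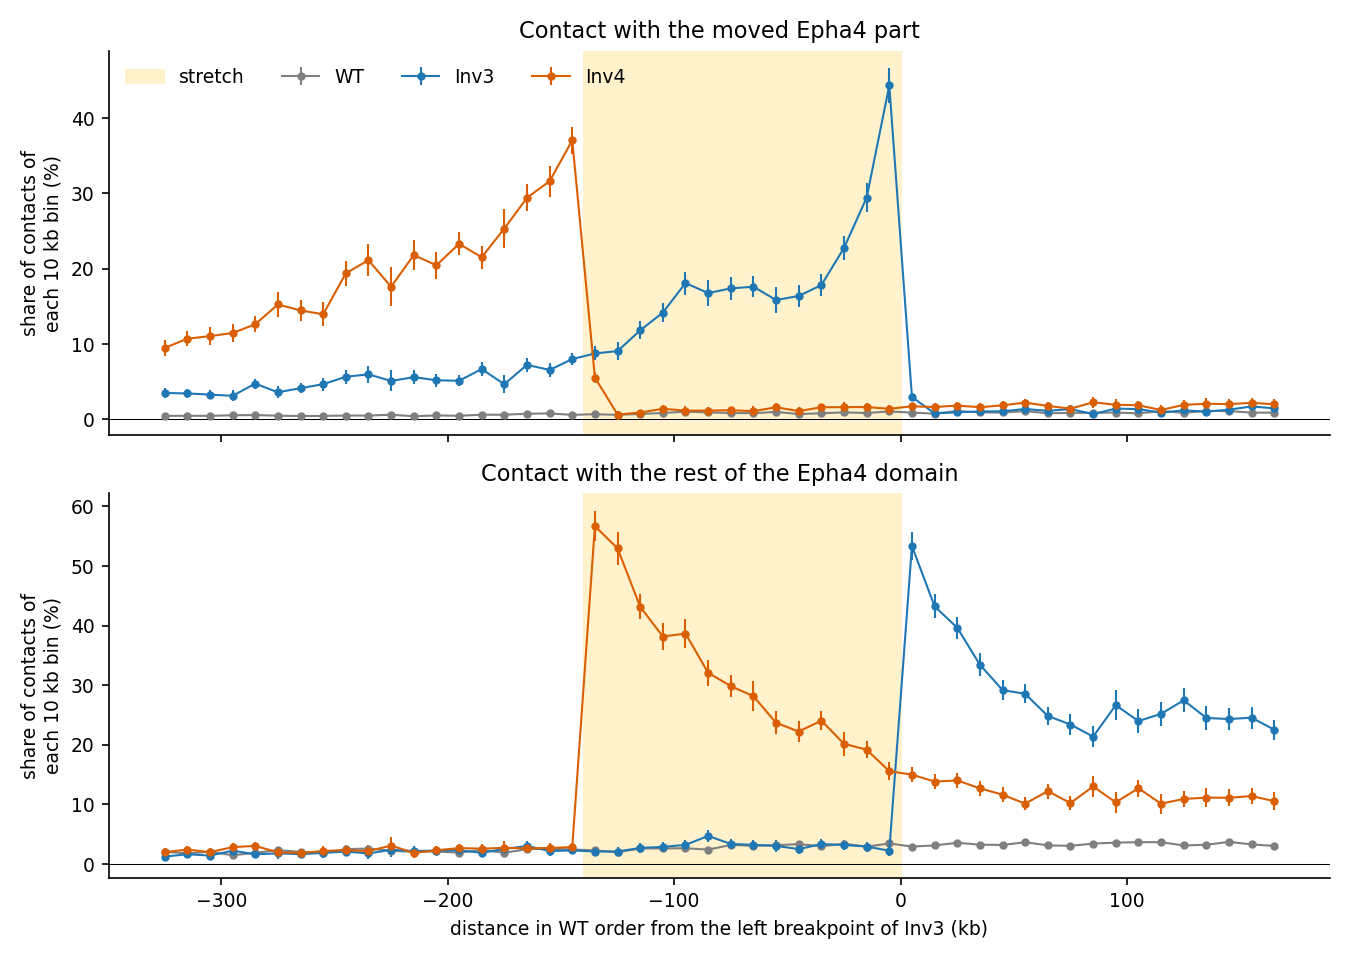
Share of contacts of each 10 kb bin (y axes, percent) with the moved Epha4 part (top) and with the rest of the Epha4 domain (bottom), by distance in WT order from the left breakpoint of Inv3 (x axis, kb), with 1 point per bin and library, 95% counting intervals and the stretch shaded. The Inv3 curve peaks at 44.4% at the right edge of the stretch in the top panel, and the Inv4 curve at 56.7% at its left edge in the bottom panel.

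The reach of the stretch into the rest of the domain was not limited to the join in Inv4. In 200 kb steps from the right join, the stretch placed 6.32% of its contacts on the nearest step and 3.77% on the next one. The remaining steps took 3.29% to 3.65% each and the outermost, at 1400 to 1600 kb near the distal border, 4.23% ± 0.099. In Inv3 no step took more than 0.413%, and in WT none more than 0.401%.

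For the moved part the 2 inversions exchanged one neighbour for another. It placed 1.53% of its contacts on the centromeric 1 Mb in WT, 7.04% in Inv3 and 21.4% in Inv4, and 33.5%, 7.43% and 5.67% on the rest of its former domain. Of 100 centromeric bins, 74 had a higher share with the moved part in Inv4 and none in Inv3, against 13.5% of bins along the map that were higher in Inv4. For the rest of the domain, 46 of 68 bins of the gene-dense part had a higher share in Inv3, against 6.81% of bins along the map, and none was higher in Inv4. The gene-dense part is joined to the rest of the domain directly in Inv3, and in Inv4 the stretch lies between them.

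Contact of the moved part was higher in Inv4 than in Inv3 at equal distance from the join, where Inv4 has the sequence around Prkag3 and Inv3 has the stretch. Within 100 kb of the left join the share with the moved part was 21.7% ± 0.29 in Inv3 and 24.9% ± 0.36 in Inv4. At 100 to 200 kb it was 8.21% ± 0.17 and 12.8% ± 0.22, and at 200 to 300 kb 4.78% ± 0.15 and 7.94% ± 0.19. At 900 to 1000 kb the values were 0.626% ± 0.068 and 0.631% ± 0.056. The stretch thus had a lower share than the sequence that replaced it, beyond the counting error, and the same held for the sequence behind it up to 900 kb. Far bins had higher shares in Inv4 as well, with medians of 0.221% in Inv3 and 0.382% in Inv4 over 279 far centromeric bins. The part of this general difference in the values near the join was not tested.

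**Figure D5:**
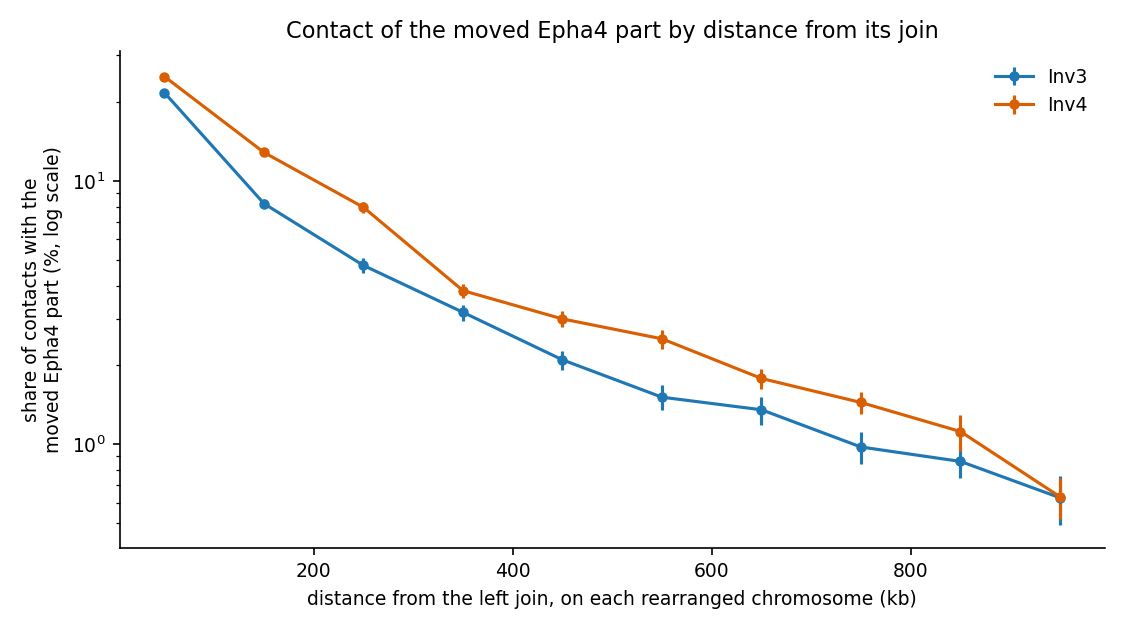
Share of contacts with the moved Epha4 part (y axis, percent, log scale) by distance from the left join on each rearranged chromosome (x axis, kb), with points for Inv3 and Inv4 at the centre of 100 kb steps and 95% counting intervals. Inv4 lies above Inv3 in the steps from 0 to 900 kb, with 12.8% against 8.21% at 100 to 200 kb.

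In Inv3 the contact of the stretch with chr1:75630001-75660000 was above the mean of the flanks of this sequence. It lies in the moved part close to the former domain border, at the end that faces away from the stretch. Contact of these 3 bins, divided by that of bins 3 to 8 on either side, was 2.43 ± 0.084 for the stretch in Inv3, 0.746 ± 0.14 in Inv4 and 0.681 ± 0.057 in WT. The flank on the border side lies in the gene-dense part, so the ratio does not show a concentration within the moved part. The flank inside the moved part was not compared alone. The same bins over their flanks gave 1.69 ± 0.017 with the rest of the domain in WT. In Inv4 the ratio was high with the sequence that had replaced the stretch. In steps of 140 kb from the left join it was 2.43, 1.41, 1.28 and 1.05 in Inv3 and 2.04, 1.81, 1.35 and 1.25 in Inv4. In the first step the stretch in Inv3 exceeded the Prkag3 side in Inv4 by more than the counting error, and in the second step the order turned.

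Near the shared right join both chromosomes had a drop in contact, in Inv3 at the join itself and in Inv4 inside the carried stretch. The border depth is the log2 drop in mean contact across a 200 kb square, against the lower of the maxima within 300 kb on either side. It was 0.785 in Inv3, at 75.90 Mb of the rearranged map, and 1.15 in Inv4, at 75.88 Mb, a bin that holds sequence of the stretch. At 13 borders outside the segment, Inv4 minus Inv3 ranged from -0.329 to 0.020 with an SD of 0.109, so the difference of 0.37 at the join lay outside that range. With 100 kb squares the difference at the join was 0.10. The stretch held a border at 74.81 Mb in WT, of depth 0.404, and at 74.82 Mb in Inv3 the depth was 0.644. Around the Inv3 left join the lowest contact lay at 74.87 Mb, the edge of the window searched, with a depth of 0.463 in WT and 0.479 in Inv3. A further border of the stretch was therefore not shown there. In Inv4 the deeper border beside the right join lay at the sequence of 74.80 Mb, beside the place of the WT border at 74.81 Mb. The former border of the Epha4 domain, turned on both chromosomes, had a depth of 1.34 in WT against 1.21 in Inv3 and 1.16 in Inv4.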

How the data were processed

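Capture Hi-C maps and gene tables of the WT, Inv1, Inv2, Inv3 and Inv4 limb bud libraries were used, grouped by title. Reads were processed with Bowtie2 2.2.6 and Juicer on mm9, per the submitters' processing notes, and the file names mark the maps as KR balanced (Knight-Ruiz). The deposited WT and Inv1 maps hold a balanced contact signal. The deposited Inv2, Inv3 and Inv4 maps and all gene tables hold a signed or scaled score made by the authors, and the scaling and the place of the enhancer region are not given in the sources used here. That a WT map had been subtracted, with weights 0.369 for Inv3 and 0.334 for Inv4, was found from the values: of recovered values under 20 reads, 99.9% lay within 0.1 of a whole read pair in both. Within the segment, bin factors correlated with WT read backwards (0.707 over 94 bins and 0.633 over 108 bins) and not forwards (-0.12 and -0.16), so maps are in rearranged order. For Inv4 the backward value was taken with the segment turned at an offset of 10 kb from the turning used for the shares.

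Bins were left out where fewer than 25% of the median count of pairs was listed. Shares, ratios to the mean at each distance and border depths were computed with Python 3.11.15, NumPy 2.4.6 and pandas 2.3.3. Simulated data were used to test the recovery of read pairs, the counting error of a region sum and the 2-fold count. The shares, distance ratios, border depths and the turning of the segment were not tested in this way. Log2 ratios used a pseudocount of 0.5. Named genes were those of the stretch, the 10 with the highest and the 10 with the lowest log2 ratio, the genes beside each left breakpoint, Ihh, Epha4, Pax3, Sgpp2, Farsb, Mogat1, Slc4a3 and Des. The gene group from Usp37 to Prkag3 and the share of the stretch by 140 kb step were chosen after values were seen. Members, regions and lists were chosen with earlier results of these data known. RefSeq (GRCm38.p6) matched 98 symbols directly and 5 as synonyms, 101 of 102 neighbouring pairs were in its order, and it gave names, order and promoters only. Of the genes, 30 share all values with another.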

Additional observations from a re-analysis of the deposited data

How the results depend on the processing

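No paired analysis was possible because every condition has 1 library, and for the same reason no library could be left out. The settings run for single genes could not check direction past 2-fold. A pseudocount cannot turn the sign of a log2 ratio. Centring took the same median of -0.40 from every ratio, too little to turn a gene past 2-fold. The median log2 ratio of the stretch genes was 4.52 with a pseudocount of 0.05, 3.85 after dividing by the mean of the far genes and 1.89 with a pseudocount of 5. That pseudocount left 4 genes over 2-fold higher in Inv3, which were the stretch genes, and 6 higher in Inv4, and 0.05 gave 21 and 47. Adding the subtracted WT signal back lowered the contact differences of the stretch to 8.62 percentage points for the moved part, 14.7 for the rest of the domain and 8.33 for the centromeric 1 Mb, in the directions reported. With it the shares in Inv3 and Inv4 were 9.83% and 1.21% for the moved part, 2.92% and 17.6% for the rest of the domain, and 19.9% and 11.54% for the centromeric 1 Mb. Leaving out 2 bins at each end of the stretch gave 15.6, 26.8 and 13.7 points, and setting negative values to 0 gave 15.9, 26.6 and 13.9. Turning the Inv4 segment with an offset of 1 bin, chosen after seeing the data, gave 15.1, 27.8 and 14.4 and an Inv4 share of 3.48% with the moved part in place of 1.57%. It was tried since the best match of the subtracted WT signal lay 10 kb from the one used. The difference in border depth near the right join was 0.34 with 300 kb squares and 0.10 with 100 kb squares, and the cause was not tested. Depth was not recovered inside the inverted segments, so the counting errors of the stretch are approximate.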
